A study of Mus musculus with 4 samples.

Results

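The genes described here encode the enzymes that cut and unfold antigen in the endosomes and lysosomes of B cells, together with an inhibitor of these enzymes. They are Ifi30, which encodes the gamma-interferon-inducible lysosomal thiol reductase GILT, the cathepsins Ctsa, Ctsb, Ctsc, Ctsd, Ctsh, Ctss and Ctsz, legumain (Lgmn) and cystatin C (Cst3). They were taken by gene symbol from the deposited tables, where all 10 are listed among 23305 genes. Spleens of female mice gave the quiescent follicular B cells, which were sorted and their RNA sequenced in 4 libraries, 2 per genotype. Wild-type (WT) mice were C57BL/6, and Ets1-/- mice, which lack the transcription factor Ets1, were C57BL/6 x 129Sv, so that genotype and strain cannot be told apart in these libraries. The Ets1 mutation is carried by every cell of the mouse and not by B cells alone. In both genotypes the sort kept B220+ cells with high CD23 and low CD21 that lacked CD80 and the switched isotypes IgA, IgE and IgG. Ages are not given in the sources used here. The replicates are called biological in the methods, and the p-values below measure only the spread between these 4 samples.

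B cells take up antigen through the B cell receptor and deliver it to acidic endosomes. There GILT reduces disulfide bonds, and proteases trim both the antigen and the invariant chain that blocks the peptide groove of MHC class II. Cathepsin S is the protease best known for the last step of invariant chain cleavage in B cells, and cystatin C inhibits papain-type cathepsins, cathepsin S among them. MHC class II then presents the resulting peptides to helper T cells.

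Expression was measured as FPKM, the number of sequenced fragments scaled by transcript length and by the mapped reads of the library, which is a level per length and lets genes be set in order. The number of reads behind a value is not part of the files, but ratios between very low values put the deepest library at about 2 times the depth of the shallowest. Ets1 itself had an FPKM of 231 and 275 in WT and of 229 and 229.8 in Ets1-/- B cells, and the deletion does not remove the whole transcript, so this level does not check the labels. B cell identity was clear in all libraries: the 8 measured follicular B cell markers, among them Ms4a1 and Cd79a, summed to between 5590 and 6832 FPKM, and 0 of 8 passed the test described below, Cd79a alone of them having both Ets1-/- values below WT. Ighd and Ighm were not analysed here.

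In WT follicular B cells the 10 genes spanned levels from 28.6 to 460 FPKM. Ctss was the highest, at 465 and 455 FPKM in the replicates, and only 1.84% of the 10949 genes tested had a mean at or above its own. Ifi30, Ctsh, Cst3 and Ctsz followed within a narrow band, with WT means of 269, 245, 222 and 216 FPKM. Lgmn and Ctsa lay at 88.5 and 86.3 FPKM, Ctsc at 59.0 and Ctsd at 45.0, and Ctsb was the lowest at 28.6. Both replicate values of each gene lay above both of the next gene in this order, although neighbours such as Cst3 and Ctsz differed by a ratio of only 1.03. Together the 10 genes summed to 1722 and 1718 FPKM in WT and to 2109 and 2221 FPKM in Ets1-/- B cells. Without Ifi30 the sums were 1451 and 1450.2 in WT and 1464 and 1691 in Ets1-/-, summed over genes that differed in both directions.

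**Figure D1:**
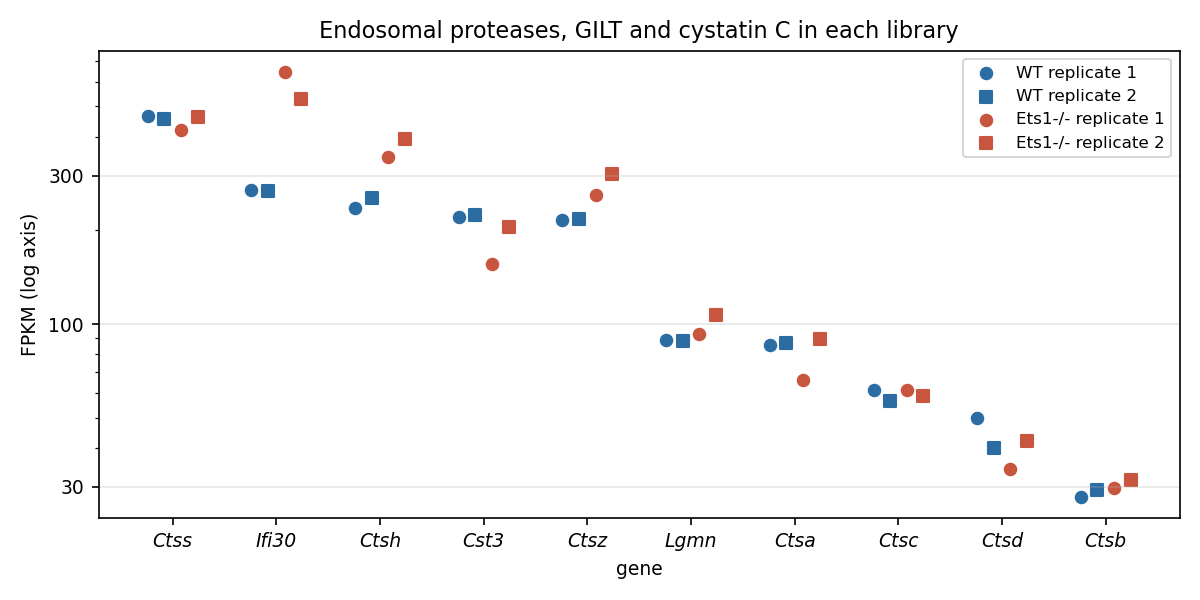
FPKM (log axis) of each of the 10 genes in each library, ordered by the WT mean, with circles for replicate 1, squares for replicate 2, blue for WT and red for Ets1-/-. Ifi30 stands at 270.4 and 268 FPKM in WT and at 645 and 530.1 FPKM in Ets1-/-, above Ctss in the latter only.

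In Ets1-/- B cells the order changed at the top. Ifi30, with a mean of 588 FPKM, took the first place from Ctss at 441 FPKM, and Ctsz at 282 FPKM moved above Cst3 at 180.2 FPKM. The other places were kept, and again both replicate values of each gene lay above both of the next. Expressed per Ctss, the Ifi30 level was 58.2% and 58.9% in the WT replicates and 153% and 115% in the Ets1-/- replicates. These ratios are taken within a library and are free of the scaling between libraries.

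The genotypes were compared with limma on log2(FPKM + 1), and calls needed both a log2 fold change of 1 or more in size and a Benjamini-Hochberg adjusted p of 0.05 or less. Of the 10 genes, all of which passed the filter on low values, 0 were called, against 1.70% of all 10949 genes tested. At an unadjusted p under 0.05 there were 2 of 10, Ifi30 and Ctsh, against 13.3% of all genes. Both Ets1-/- values lay above both WT values for 5 of the 10 genes, Ifi30, Ctsh, Ctsz, Lgmn and Ctsb, where 19.4% of all genes did so. The reverse held for 1, Cst3, against 22.2% of all genes, and the genotypes overlapped for the other 4, Ctss, Ctsa, Ctsc and Ctsd, against 58.4%. The median log2 fold change of the 10 genes was 0.06, beside -0.02 for all genes tested.

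**Figure D2:**
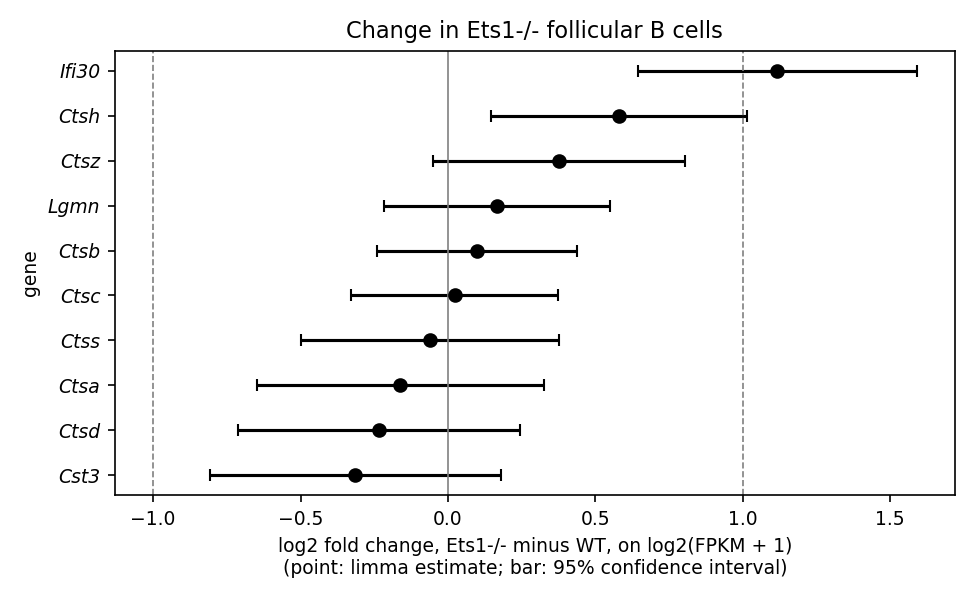
Log2 fold change of each gene, Ets1-/- minus WT, on the log2(FPKM + 1) scale (x axis), as the limma estimate (point) with its 95% confidence interval (bar). Solid and dashed grey lines mark 0 and a 2-fold change, and the intervals of Ifi30 and Ctsh alone exclude 0, before adjustment for the number of genes.

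Ifi30, on the minus strand of chromosome 8, from 73286673 to 73291050 of mm9 (ENSMUSG00000031838.6), encodes a thiol reductase that works at the acidic pH of lysosomes. Its FPKM was 270.4 and 268 in the WT replicates and 645 and 530.1 in the Ets1-/- replicates. The WT values were nearly equal, and both Ets1-/- values lay far above them. The mean went from 269 ± 1.78 to 588 ± 81.3 FPKM (SD, n = 2 each), a ratio of 2.18. The log2 fold change was 1.12 (standard error 0.19), with a 95% confidence interval from 0.64 to 1.59, and the gene missed the threshold (limma, Benjamini-Hochberg adjusted p = 0.0652). With variances estimated robustly the adjusted p was 0.0279 and the gene passed. Under the other planned limma fits on all 4 libraries the adjusted p lay between 0.0652 and 0.101. A crossed pairing, chosen after seeing the data, gave 0.0114. The direction was kept under all alternatives. A log2 fold change of at least 1 in this direction was found for 2.73% of all genes. The study lists Ifi30 as upregulated among potential Ets1 target genes linked to autoimmune disease. It drew that list from genes with a nearby Ets1 peak in ChIP-seq of B cells, which maps the DNA that Ets1 binds. The listed genes had also passed the study's own Cuffdiff selection in these same libraries, Ifi30 among them. The direction of Ifi30 here is therefore not independent evidence. In bulk RNA a change in the number of expressing cells and a change in RNA per cell cannot be told apart.

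The 250 bases upstream of the RefSeq start site of Ifi30 are shown beside those of Ctss, which had the highest WT level and overlapped between the genotypes, and of Ctsd, an aspartic protease of the same compartment. Capitals mark 2 short motifs on either strand. GGAA, read as TTCC on the other strand, is the core that Ets factors bind, and CACGTG is the core of the element bound by Tfeb, a transcription factor of lysosomal genes. The motifs do not overlap in these windows.
Ifi30, chr8:70766664-70766913 of GRCm38.p6, minus strand: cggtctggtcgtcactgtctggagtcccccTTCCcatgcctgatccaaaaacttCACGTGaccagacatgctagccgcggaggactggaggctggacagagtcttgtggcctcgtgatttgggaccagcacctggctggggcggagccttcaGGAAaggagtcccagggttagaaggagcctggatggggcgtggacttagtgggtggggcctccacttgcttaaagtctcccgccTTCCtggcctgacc
Ctss, chr3:95526536-95526785 of GRCm38.p6, plus strand: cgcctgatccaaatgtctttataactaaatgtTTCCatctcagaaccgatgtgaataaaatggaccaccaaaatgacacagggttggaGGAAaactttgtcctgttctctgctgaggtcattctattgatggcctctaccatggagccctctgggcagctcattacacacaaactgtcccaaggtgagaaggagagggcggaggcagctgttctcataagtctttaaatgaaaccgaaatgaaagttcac
Ctsd, chr7:142387828-142388077 of GRCm38.p6, minus strand: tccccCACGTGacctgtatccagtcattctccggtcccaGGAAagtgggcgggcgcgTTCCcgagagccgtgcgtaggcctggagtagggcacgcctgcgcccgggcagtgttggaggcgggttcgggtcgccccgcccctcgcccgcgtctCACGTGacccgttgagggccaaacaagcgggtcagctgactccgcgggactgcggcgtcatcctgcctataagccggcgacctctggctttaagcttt

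Ifi30 had 3 GGAA cores, the nearest ending 11 bases before the start site, and 1 CACGTG, which began 196 bases before it. Ctss had 2 GGAA cores and lacked CACGTG, while Ctsd had both motifs, 2 of each. The GGAA core was present in 93.4% of the 32851 RefSeq windows of the same length (GRCm38.p6), with a median of 3 per window, so its presence in all 8 of the 8 matched genes is near the background. The longer GGAAG was found in 5 of 8 genes and in 64.1% of all windows. CACGTG was found for 4 of the 8 genes, Ifi30, Ctsd, Ctsa and Lgmn, the latter pair in 1 of their 2 windows each, and in 6.02% of all windows. GGAAG contains GGAA, and a letter match is no evidence of binding. Nor do these counts check the Ets1 peak that the study reports near Ifi30. Ctsb and Ctsh had no entry.

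Among the papain-type cysteine proteases, Ctsh, Ctsz and Ctsb had both Ets1-/- values above WT, and Ctss and Ctsc overlapped between the genotypes. Ctsh, an aminopeptidase, is on chromosome 9 from 89948990 to 89970927 of mm9, 57.4 Mb from Ets1 on the same chromosome. Its FPKM was 236 and 254 in WT and 344 and 392 in Ets1-/- B cells, without overlap and with a ratio of means of 1.5. Its log2 fold change was 0.58 (standard error 0.17, 95% confidence interval 0.15 to 1.02), which did not pass (limma, Benjamini-Hochberg adjusted p = 0.216). Taken per Ctss within each library, Ctsh stood at 50.9% and 55.9% in WT and at 81.6% and 85.1% in Ets1-/-.

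Ctsz, a carboxypeptidase also called cathepsin X, is on chromosome 2 from 174252994 to 174264540. The WT replicates had 215 and 217 FPKM, and the Ets1-/- replicates had 259.6 and 303 FPKM, both above WT. The ratio of means was 1.30, and the log2 fold change of 0.38 (95% confidence interval -0.05 to 0.80) did not pass (limma, Benjamini-Hochberg adjusted p = 0.443). Ctsc, a dipeptidyl peptidase known for activating the granule serine proteases of cytotoxic cells and neutrophils, lies on chromosome 7 from 95426595 to 95459398. It had 61.2 and 56.8 FPKM in WT and 61.3 and 58.5 FPKM in Ets1-/- B cells. Ctsc had a log2 fold change of 0.02 (95% confidence interval -0.33 to 0.37), the smallest of the 10, and its sign turned with the replicate left out, so no direction is given.

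Ctss, on chromosome 3 from 95330708 to 95360325, had 465 and 455 FPKM in WT and 421 and 461 FPKM in Ets1-/- B cells. The genotypes overlapped, with a log2 fold change of -0.06 (95% confidence interval -0.50 to 0.38) whose sign depended on the replicate left out. The interval excludes a 2-fold change in either direction. Ctsb, an endopeptidase that also acts as a carboxydipeptidase, is on chromosome 14 from 63741302 to 63764758, where its annotated exons overlap those of Fdft1 on the other strand. It had 27.9 and 29.2 FPKM in WT and 29.7 and 31.7 FPKM in Ets1-/- B cells. These values do not overlap, but the log2 fold change was only 0.10 (95% confidence interval -0.24 to 0.44, limma, Benjamini-Hochberg adjusted p = 0.871).

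Legumain, an endopeptidase that cuts after asparagine, is encoded on chromosome 12 from 103632294 to 103678023. Lgmn had 88.7 and 88.4 FPKM in WT and 92.8 and 107 FPKM in Ets1-/- B cells, a log2 fold change of 0.17 (95% confidence interval -0.22 to 0.55). The lower Ets1-/- value lay just above WT, and the gap between the Ets1-/- replicates was larger than that between it and WT. Ctsd, the aspartic protease cathepsin D, is on chromosome 7 from 149557053 to 149573943. It had 50.1 and 40.0 FPKM in WT and 34.1 and 42.1 FPKM in Ets1-/- B cells, so the genotypes overlapped, and the log2 fold change was -0.23 (95% confidence interval -0.71 to 0.25). Ctsa encodes a serine carboxypeptidase that also protects neuraminidase and beta-galactosidase, and lies on chromosome 2 from 164658373 to 164666532 with exons that overlap those of Pltp and Neurl2 on the other strand. It had 85.9 and 86.8 FPKM in WT and 66.2 and 89.7 FPKM in Ets1-/- B cells, with the WT values between the Ets1-/- values. Exons of Ctsz overlap Th1l on the other strand and those of Ctsd overlap 6330512M04Rik on the same strand, and the library kit named in the labels is not one that marks strand, so reads of such stretches cannot be told apart.

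Cst3, the inhibitor, was the 1 gene of the 10 whose Ets1-/- values both lay below WT. It is on chromosome 2 from 148697458 to 148701428. The FPKM was 221 and 223 in WT and 155 and 205 in Ets1-/- B cells. The WT mean was 222 ± 1.48 and the Ets1-/- mean 180.2 ± 35.0 FPKM (SD, n = 2 each), and the log2 fold change of -0.31 (standard error 0.19, 95% confidence interval -0.81 to 0.18) did not pass (limma, Benjamini-Hochberg adjusted p = 0.635). Set against the summed FPKM of the 5 papain-type cathepsins Ctsb, Ctsc, Ctsh, Ctss and Ctsz, Cst3 stood at 22.0 and 22.1 per 100 in the WT replicates and at 13.9 and 16.4 per 100 in the Ets1-/- replicates. That sum itself was 1006 and 1012 FPKM in WT and 1115 and 1247 FPKM in Ets1-/-. These ratios of transcript levels did not overlap between the genotypes; with 2 libraries against 2, an exact two-sided permutation test cannot give a p below 0.333.

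**Figure D3:**
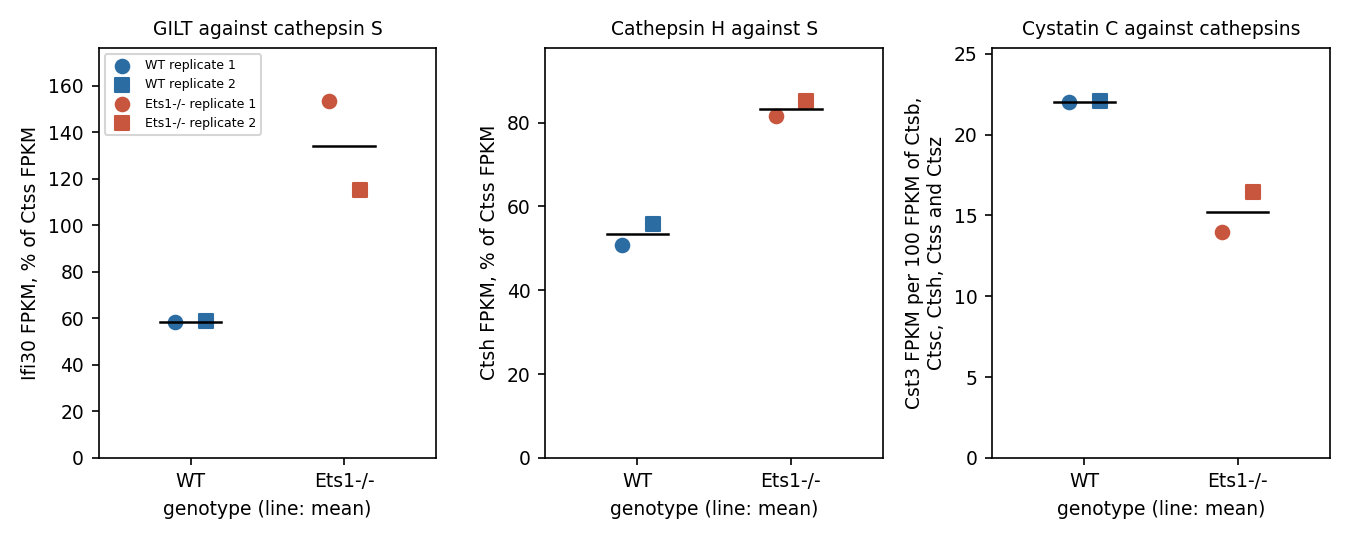
Within-library ratios of FPKM (y axes) by genotype, with circles for replicate 1, squares for replicate 2 and a line at the mean: Ifi30 in percent of Ctss, Ctsh in percent of Ctss, and Cst3 per 100 FPKM of the 5 papain-type cathepsins. The Cst3 ratio is 22.0 and 22.1 in WT and 13.9 and 16.4 in Ets1-/-, and no panel shows overlap between the genotypes.

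Of 12 further proteases of the same compartment 11 passed the filter on low values, and 1, Ctse, was called, against 1.70% of all genes. Ctse encodes cathepsin E, an aspartic protease related to cathepsin D, on chromosome 1 from 133534883 to 133572080. Its FPKM was 11.8 and 10.9 in WT and 149 and 200.7 in Ets1-/- B cells, and the ratio of the means was 15.5, so that it rose from well below Ctsb, the lowest of the 10, to above Lgmn. The log2 fold change was 3.82 (standard error 0.19) (limma, Benjamini-Hochberg adjusted p = 0.00254). Napsa, a further aspartic protease, had 289.8 and 311 FPKM in WT and 464 and 491 FPKM in Ets1-/- B cells, a log2 fold change of 0.67 (limma, Benjamini-Hochberg adjusted p = 0.158). For the third aspartic protease, Ctsd, the genotypes overlapped. Of the 11 genes 8 had both Ets1-/- values above WT and 2 below, against 19.4% and 22.2% of all genes. Their median log2 fold change was 0.37, beside -0.02 for all genes tested. An unadjusted p under 0.05 was found for 6 that were higher and 1 that was lower in Ets1-/- B cells. Over all genes the share in either direction was 13.3%.

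**Figure D4:**
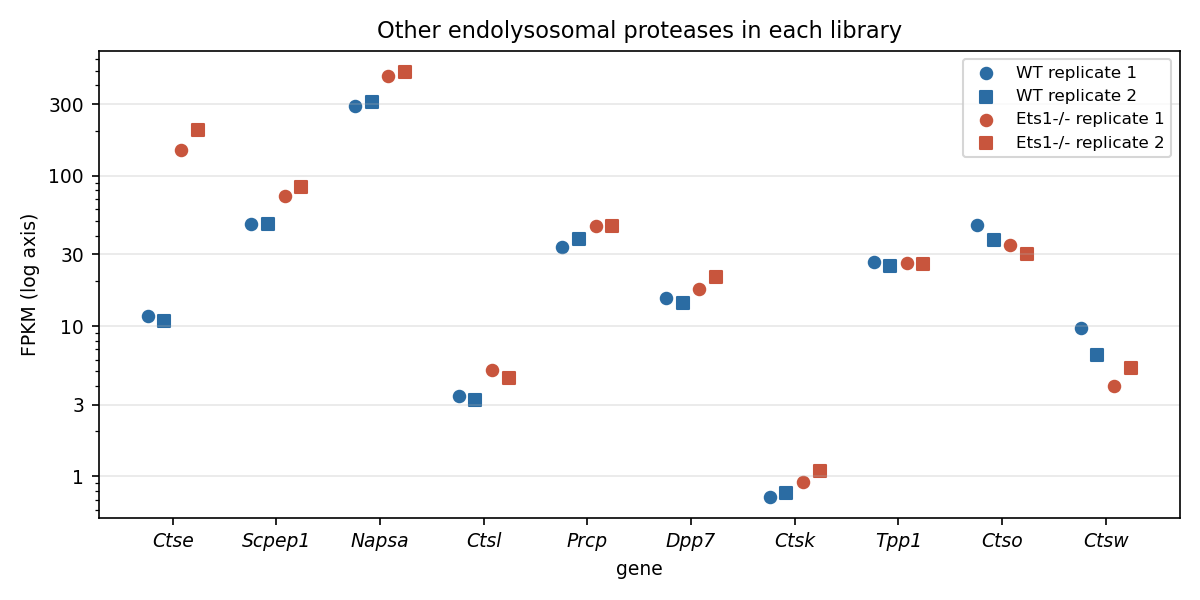
FPKM (log axis) of 10 further endolysosomal proteases in each library, ordered by log2 fold change and without Ctsg, which is listed at 0 in 1 WT library, with circles for replicate 1, squares for replicate 2, blue for WT and red for Ets1-/-. Ctse stands at 11.8 and 10.9 FPKM in WT and at 149 and 200.7 FPKM in Ets1-/-, and Tpp1 at 25.2 to 26.7 FPKM in all libraries.

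The lists of the wider lysosomal pathway held 0 called genes, where 1.70% of all genes were called, so that few or no calls in lists of this length are near the background. Of 29 lysosomal hydrolases and their cofactors 6 had both Ets1-/- values above WT and 8 below, near the shares of 19.4% and 22.2% of all genes. Their median log2 fold change was 0.09. An unadjusted p under 0.05 was found for 2 genes in each direction, where 13.3% of all genes had one in either direction. Those of largest change without overlap were Arsb, which encodes arylsulfatase B, at -0.73 and Galns, which encodes a sulfatase of keratan sulfate, at 0.61 on the log2 scale. Neither the 16 lysosomal membrane and proton pump genes (median -0.01, 1 gene at an unadjusted p under 0.05) nor the 5 tested genes of 6 for sorting to lysosomes (median -0.01, 0 at an unadjusted p under 0.05) gave a call. Of the membrane and pump genes the non-overlapping ones of largest change were Cd63, a tetraspanin of lysosomal membranes, with a log2 fold change of 1.01 and Mcoln1, a lysosomal cation channel, with -0.45. Cd63 was low, at 1.42 and 0.800 FPKM in WT and 4.74 and 2.08 FPKM in Ets1-/- B cells (limma, Benjamini-Hochberg adjusted p = 0.288). Among the sorting genes the non-overlapping ones were Gnptg and Gnptab, subunits of the transferase that makes the mannose 6-phosphate tag, at -0.49 and 0.27 on the log2 scale. The 2 tested of 7 other cystatins and stefins gave none either, at either p, and Cstb, which encodes the intracellular inhibitor stefin B, had 41.8 and 51.6 FPKM in WT and 55.8 and 67.9 FPKM in Ets1-/- B cells. Tfeb and Tfe3, the 2 tested of 4 lysosomal transcription factors, had log2 fold changes of 0.24 and -0.28, with 0 called and 0 at an unadjusted p under 0.05.

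The 10 genes of MHC class II presentation, which use the peptides that these enzymes make, gave 0 calls and 0 at an unadjusted p under 0.05. Over all genes these shares were 1.70% and 13.3%. Their log2 fold changes ran from -0.01 to 0.34, with a median of 0.21. Both Ets1-/- values lay above WT for 7 of the 10 and below for 0, against 19.4% and 22.2% of all genes. The non-overlapping genes of largest change were H2-Oa and H2-DMa, which encode chains of proteins that control peptide loading, at 0.34 and 0.30. Their invariant chain gene Cd74 had 11572 and 12157 FPKM in WT and 12717 and 14863 FPKM in Ets1-/- B cells. Per 100 FPKM of Cd74, Ifi30 stood at 2.34 and 2.20 in WT and at 5.07 and 3.57 in Ets1-/-. Of 12 genes known to be induced by interferon-gamma, as GILT is, 0 were called and 2 had an unadjusted p under 0.05, and 7 of the 12 had both Ets1-/- values above WT and 1 below. Gbp2, an interferon-induced GTPase, came nearest, with 9.18 and 9.07 FPKM in WT and 19.4 and 26.9 FPKM in Ets1-/- B cells (limma, Benjamini-Hochberg adjusted p = 0.0562). Socs1, an inhibitor of cytokine signalling, followed with 5.28 and 4.10 FPKM in WT and 7.54 and 13.4 FPKM in Ets1-/- B cells. Irf1, a transcription factor of that response, had a log2 fold change of 0.35 and did not pass.

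Of 10 thiol oxidoreductases outside the lysosome, 1 was called, against 1.70% of all genes. Txnrd1, the cytosolic thioredoxin reductase, fell from 18.9 and 19.5 FPKM in WT to 8.09 and 8.45 FPKM in Ets1-/- B cells, a log2 difference of -1.12 (limma, Benjamini-Hochberg adjusted p = 0.0282). Among the 105 other tested genes of these pathway lists, the 3 whose values across the 4 libraries lay closest to those of Ifi30 were Pdia4, Napsa and Scpep1, with distances of 0.43, 0.52 and 0.53 between centred log2(FPKM + 1) values. Pdia4, a disulfide isomerase of the endoplasmic reticulum, had 90.7 and 99.0 FPKM in WT and 170.5 and 139 FPKM in Ets1-/- B cells. Almost as near to Ifi30 as Scpep1 were Gbp2 and Cd63, at distances of 0.532 and 0.533. Likeness over 4 libraries is a description only.

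Transcripts of other cell types differed between the genotypes too. The 13 neutrophil markers summed to 119 and 98.1 FPKM in WT and to 2590.4 and 713 FPKM in Ets1-/- B cells. Called were 3 of the 13, Ngp, Ltf and Camp, against 1.70% of all genes. Both Ets1-/- values lay above WT for 12 of the 13 markers, against 19.4% of all genes. Their values in Ets1-/- replicate 1 were between 1.90 and 3.95 times those in replicate 2, with a median of 3.05. The same ratio was 1.22 for Ifi30 and 1.05 for Ctsc, and between 0.738 and 0.939 for the other 8 genes. Ctsg, the neutrophil granule protease cathepsin G, had a ratio of 4.09, with 3.84 and 0.940 FPKM in Ets1-/- B cells and 0 and 0.0671 FPKM in WT. The part of neutrophils in the levels of Ifi30 and of the other genes was not tested.

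Macrophages and dendritic cells are known for high levels of these enzymes. The 19 measured macrophage and monocyte markers summed to 76.0 and 35.2 FPKM in WT and to 166 and 103 FPKM in Ets1-/- B cells, of which Lyz2 made up 42.2, 18.0, 102 and 45.7 FPKM. Of the 12 that passed the filter 1, Emr1, was called, against 1.70% of all genes. Emr1 went from 2.35 and 2.63 FPKM in WT to 23.5 and 37.2 FPKM in Ets1-/- B cells. The median log2 fold change of the 12 was 0.32. For 3 of them both Ets1-/- values lay above WT and for 0 below, against 19.4% and 22.2% of all genes. All but Csf1r had a positive log2 fold change, from 0.06 for Cd5l to 3.13 for Emr1. Csf1r, the receptor on which most macrophages depend, was the exception, at -0.16. Its level was 2.35 and 0.999 FPKM in WT and 1.86 and 0.876 FPKM in Ets1-/-. Over the 12 markers the median ratio of replicate 1 to replicate 2 was 2.31 in WT and 2.14 in Ets1-/- B cells. The same ratio of the 10 genes lay between 0.931 and 1.25 in WT. In Ets1-/- B cells it lay between 0.738 and 1.22, with Ifi30 the highest. The 10 dendritic cell markers summed to 8.33 and 6.19 FPKM in WT and to 12.6 and 12.3 FPKM in Ets1-/-. Of the 4 tested 1, Cd209a, was called, against 1.70% of all genes, and Itgax had a log2 fold change of 0.46. None of these markers was listed at 0 in all libraries, and their part in the results was not tested.

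For the remaining cell types, 1 of 10 T cell markers was called, against 1.70% of all genes. It was Thy1, which fell from 17.4 and 16.2 FPKM to 3.38 and 3.39 FPKM. The T cell markers summed to 147 and 123 FPKM in WT and to 106 and 134 FPKM in Ets1-/- B cells. Of the plasma cell, the marginal zone and B1 cell, and the erythroid markers 0 of 5, 0 of 10 and 0 of 4 tested genes were called. In lists of this length that is near the 1.70% of all genes. At an unadjusted p under 0.05 were 2, 5 and 3 of these markers, against 13.3% of all genes. Their non-overlapping genes of largest change were Sdc1 and Irf4 with log2 fold changes of 1.08 and -0.85, Itgam and Cr2 with 1.33 and -1.28, and Hba-a1 and Hbb-b1 with 2.82 and 2.53, and that of the T cell list beside Thy1 was Cd3g with 0.54. The erythroid markers summed to 6.31 and 4.87 FPKM in WT and to 88.8 and 27.9 FPKM in Ets1-/-, highest in the replicate with the most neutrophil transcript.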

How the data were processed

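Total RNA of sorted follicular B cells was made into libraries with the TruSeq RNA kit. The authors aligned reads to mm9 with TopHat2 2.0.13, per the submitters' processing notes, ran Cuffdiff for expression levels, and deposited FPKM values in 1 table per library; the annotation, the Cuffdiff version and its scaling between libraries are not given in the sources used here. Of 23309 entries per table, 4 with a repeated symbol were left out. Linear models were fitted to log2(FPKM + 1) of all 4 libraries with limma 3.58.1 in R 4.3.3 (trend, residual degrees of freedom 2, prior degrees of freedom 3.10) for the 10949 genes whose mean reached 1 FPKM in either or both genotypes, and p-values were adjusted over all of them; the fit was tested on simulated data, in which most changes of 2 or 3 on the log2 scale were called and changes of 1 were not. This scale understates changes of low genes. Relative depth was read from ratios of values under 0.05 FPKM. Positions and overlaps are from GENCODE M1 (mm9), and upstream sequences from RefSeq (GRCm38.p6), in which 8 of the 10 genes matched. Other values were computed in Python 3.11.15.

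The members and gene lists were chosen with earlier results of these data known. The text names all 10 members, in each other list the called genes and the 2 tested genes of largest change among those whose genotypes do not overlap, and the 3 genes nearest Ifi30; Tfeb, Tpp1, Irf1, Ms4a1, Cd74, Csf1r and Lyz2 were named after their values were seen. Alternatives were another pseudocount (0.1), other filters, a replicate block, each replicate left out, quantile and upper-quartile scaling, robust variance estimation and no test.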

Additional observations from a re-analysis of the deposited data

How the results depend on the processing

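The count of called members was 0 under 10 of the 13 alternatives and 1, always Ifi30, with robust variance estimation, with no test but a ratio of mean FPKM of at least 2, and with a crossed pairing. The log2 fold change of Ifi30 stayed between 0.96 and 1.26 (0.98 to 1.26 with each replicate left out). Of the 10 members 7 kept their direction throughout. With each replicate left out the log2 fold change ranged from -0.38 to 0.054 for Ctsa, from -0.031 to 0.075 for Ctsc and from -0.13 to 0.0039 for Ctss, and Ctsc was at -0.012 after quantile normalization; the cause was not tested. Of all genes tested, 186 were called, and 75 without a filter on low values (more genes tested), 305 with robust variance estimation, 803 with no test, and 99 to 116 with each replicate left out, which leaves fewer samples and assumes that the lone sample varies like the other genotype.

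The genotypes share replicate numbers, but nothing in the labels pairs them. Blocking on replicate number gave 266 called genes and 0 called members, and same-numbered libraries deviated from their genotype means with a correlation across genes of -0.21. With the crossed pairing as a block, chosen after seeing the data, 409 genes were called and 1 member. The reads behind each FPKM are not in the files and the methods give only a range of reads over the samples, so no counting error is given.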
